A study of Mus musculus with 6 samples.

Results

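The Cck/Cpne4 neurons are one of the 38 neuron subtypes that the authors named in the lumbar spinal cord of paralysed mice. Their members are all nuclei that the deposited annotation places in the major cell type Neuron and in the subtype Cck/Cpne4. They were 122 of 6035 neurons (2.02%) and of 18514 nuclei in all, which made them the subtype 23rd in size. The study measured RNA in single nuclei with 10x version 2 chemistry from wild type C57BL/6 mice, all of which had a severe contusion of the thoracic cord and spent 30 min on a treadmill. In 3 samples the cord was stimulated during that time by targeted epidural electrical stimulation (TESS), which enabled walking when combined with 5-HT1a and D1 agonists, drugs that act on serotonin and dopamine receptors. The 3 CON samples, labelled paralyzed, had no stimulation, and whether those mice received the agonists is not clear. The tissue is labelled lumbar cord although the extraction text names the injury site. The labels do not tie samples to animals or pools, and p-values therefore measure the spread between these samples, which may be technical.

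Excitatory interneurons of the cord release glutamate, which the transporter encoded by Slc17a6 loads into vesicles, and many also make a peptide. Cck encodes cholecystokinin, a peptide that in the dorsal horn marks excitatory interneurons of the deeper laminae that receive touch input. Cpne4 encodes a copine, a calcium-dependent phospholipid-binding protein. The 2 genes that name the subtype both lie on chromosome 9 of the mouse genome (GRCm38, GENCODE vM21), Cck at 121489824 to 121495694 on the minus strand and Cpne4 at 104547286 to 105034544 on the plus strand. The 250 bases before the RefSeq start of each gene (GRCm38.p6, printed 5′ to 3′ on the gene's strand) are shown because these genes define the subtype. For Cpne4 the RefSeq start lies inside the GENCODE span given above, so its window is not the sequence before that span. Capitals mark the E-box CACGTG and the CRE core TGACG, searched on both strands, so that TGACG reads CGTCA where it lies on the other strand.
Cck, chr9:121495695-121495944: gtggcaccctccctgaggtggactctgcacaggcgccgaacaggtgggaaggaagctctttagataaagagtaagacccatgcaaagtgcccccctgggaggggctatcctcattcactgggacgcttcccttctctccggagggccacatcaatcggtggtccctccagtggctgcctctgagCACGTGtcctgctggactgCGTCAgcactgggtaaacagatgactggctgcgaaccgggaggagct
Cpne4, chr9:104569405-104569654: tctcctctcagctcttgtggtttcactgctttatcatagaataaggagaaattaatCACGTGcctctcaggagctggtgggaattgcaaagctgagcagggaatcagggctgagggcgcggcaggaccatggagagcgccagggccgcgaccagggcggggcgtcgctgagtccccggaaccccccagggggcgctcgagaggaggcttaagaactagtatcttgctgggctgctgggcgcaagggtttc
The E-box began 66 bases before the start in Cck and 194 bases before it in Cpne4, and 6.02% of 32851 RefSeq promoters held one in the same window. The CRE core of Cck, 47 bases before the start, has a match in 17.8% of those promoters. RefSeq lists a further start site for Cpne4, whose window held neither motif.

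The 3 TESS samples held 6, 17 and 15 Cck/Cpne4 nuclei, and the 3 CON samples held 33, 18 and 33. Their summed unique molecular identifiers (UMIs, each standing for 1 captured RNA molecule) were 11080, 14643 and 15256 in TESS and 39449, 33260 and 37371 in CON, so the TESS values rest on fewer molecules. A count of 3 corresponds to 19.9 counts per 1000000 UMIs (CPM) over the whole subtype, to 73.2 CPM over the TESS nuclei and to 27.3 CPM over the CON nuclei. The median nucleus held 1661, 859 and 1086 UMIs in TESS and 1299, 1684 and 999 UMIs in CON. The groups overlapped, at 1202 ± 413 in TESS and 1327 ± 343 in CON (SD, n = 3 each, two-sided exact permutation p = 0.7). TESS 1, CON 1 and CON 2 share a batch number in the metadata, while the other samples each have one of their own. 1 cell barcode among the Cck/Cpne4 nuclei also occurs in another library.

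The Cck/Cpne4 neurons made up 0.816%, 1.59% and 2.13% of neurons in the TESS samples, against 2.76%, 1.65% and 2.67% in the CON samples. The exact 95% interval of the lowest share, that of TESS 1, was 0.300% to 1.77%, and it covers counting error only. The groups overlapped, since TESS 3 lay above CON 2. The mean shares of 1.51% ± 0.66 in TESS and 2.36% ± 0.62 in CON did not differ beyond this spread (SD, n = 3 each, two-sided exact permutation p = 0.2, where 0.1 is the smallest p that 3 against 3 samples allow). Within the shared batch the share was 0.816% in TESS 1, against 2.76% and 1.65% in CON 1 and CON 2, with too few samples for a test.

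The levels of the 2 naming genes are a description, since the authors named the subtype from these counts. Cpne4 reached 3363 CPM in the Cck/Cpne4 neurons (508 UMIs, exact Poisson 95% interval 3077 to 3668), and the next subtype, Crh, had 427 CPM. Cck reached 4852 CPM (733 UMIs, interval 4507 to 5217), below the Trh subtype at 5851 CPM (interval 5506 to 6211) and above Meis2, Maf/Clbn2 and Rora/Parp8 at 1732, 1656 and 1424 CPM. The Poisson intervals of Meis2, Maf/Clbn2 and Rora/Parp8 overlap one another, so their order is not resolved. In the other 19 excitatory subtypes together (2964 nuclei), Cck had 529 CPM and Cpne4 119 CPM. Subtypes were taken as excitatory when their UMIs of Slc17a6, Slc17a7 and Slc17a8 outnumbered those of the inhibitory genes Gad1, Gad2, Slc32a1 and Slc6a5.

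**Figure D1:**
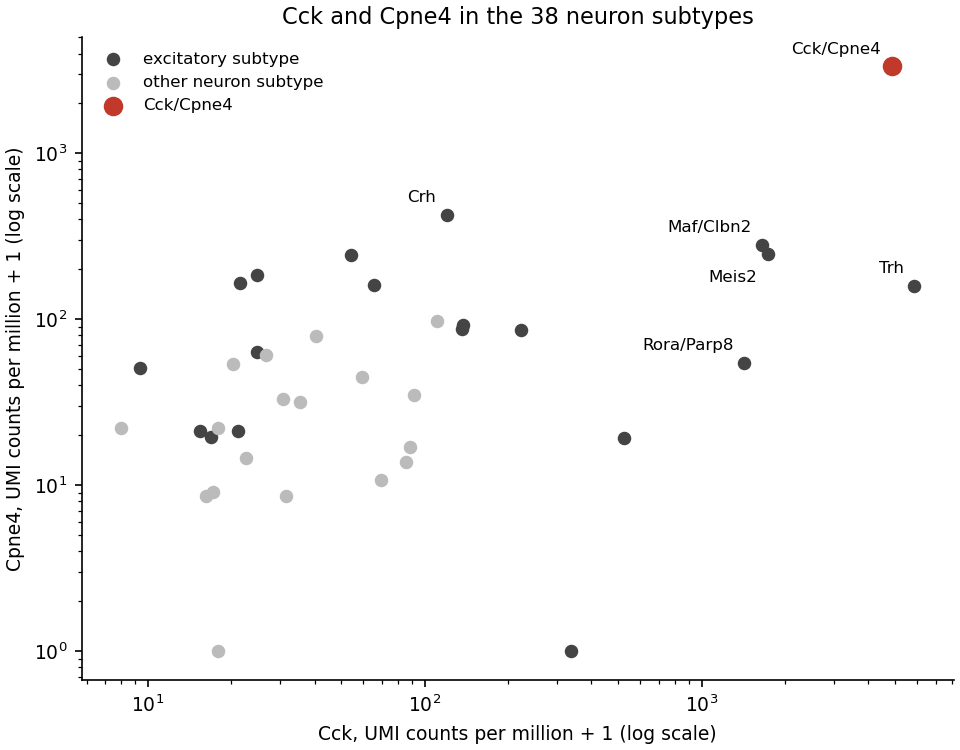
Level of Cck (horizontal) and Cpne4 (vertical) in each of the 38 neuron subtypes, as CPM plus 1 on log axes, all 6 samples summed; dark points are excitatory subtypes and light points the others. The Cck/Cpne4 neurons stand apart at the upper right with 4852 CPM of Cck and 3363 CPM of Cpne4, while the Trh subtype has the higher Cck level but 158 CPM of Cpne4.

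The excitatory label rests on few molecules. Slc17a6 gave 24 UMIs in 20 nuclei, or 159 CPM against 283 CPM in the other excitatory neurons, and the 4 inhibitory genes together gave 9 UMIs. By sample Slc17a6 was at 90.3, 410 and 262 CPM in TESS and at 101, 90.2 and 161 CPM in CON. With each nucleus thinned to 500 UMIs, Slc17a6 was seen in 6.14% of the Cck/Cpne4 nuclei (exact 95% interval 2.50% to 12.2%, 8 shallower nuclei left out), 12.5% of the other excitatory nuclei (11.3% to 13.8%), 3.34% of inhibitory nuclei (2.71% to 4.07%) and 0.979% of oligodendrocytes. The interval of the Cck/Cpne4 nuclei overlaps those of both neuron classes. Unthinned, the shares were 16.4%, 34.9%, 10.0% and 1.06%, at median depths of 1230, 1517, 1891.5 and 433 UMIs.

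The naming genes were seen in nearly every member. Of the 122 nuclei, 105 held both Cck and Cpne4, 5 held Cck alone, 10 held Cpne4 alone and 2 held neither. The median nucleus had 4 UMIs of Cck (at most 31) and 3 of Cpne4 (at most 18). After thinning to 500 UMIs, Cck was seen in 78.9% of Cck/Cpne4 nuclei, 13.1% of other excitatory nuclei, 2.04% of inhibitory nuclei and 1.07% of oligodendrocytes, the last of which should lack it. The corresponding shares of Cpne4 were 72.8%, 5.07%, 2.04% and 0.284%, and unthinned Cck and Cpne4 were seen in 90.2% and 94.3% of Cck/Cpne4 nuclei.

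**Figure D2:**
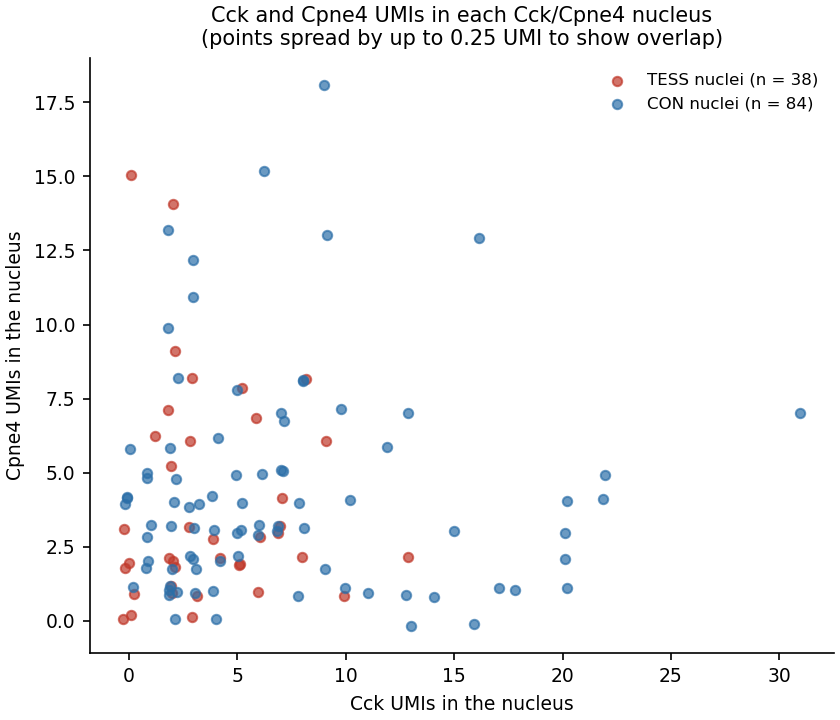
UMIs of Cck (horizontal) and of Cpne4 (vertical) in each of the 122 Cck/Cpne4 nuclei, 38 from TESS and 84 from CON samples, with points moved slightly so that overlapping nuclei can be seen. Most nuclei hold both transcripts, and those with the most Cck are not those with the most Cpne4.

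Beyond the 2 names, a set of genes was higher in the subtype than in the rest of the excitatory neurons, where some of them, such as Zfp804b and Erbb4, were also well detected. The 25 genes with the largest ratio of CPM in Cck/Cpne4 neurons over CPM in other excitatory neurons (5 CPM added to each) are given as a description with no test, because the authors' clusters were made from these same counts. They were taken from 243 genes that had at least 50 CPM and were higher in each of the 6 samples, out of 3740 genes at that level. In 19 of the 25 the Cck/Cpne4 neurons had the highest CPM of all 38 subtypes, although not always beyond counting error.

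The largest ratio was that of a matrix gene. Mgp, which encodes matrix Gla protein, an inhibitor of calcification in vessels and cartilage, was at 451, 820 and 1442 CPM in the TESS samples and at 963, 1503 and 669 CPM in the CON samples. The groups overlapped widely, and the other excitatory neurons had 1.56 CPM over all samples. The Cck/Cpne4 neurons held 152 UMIs of Mgp in 51 nuclei, which was 90.5% of all Mgp UMIs of neurons. Endothelial nuclei had Mgp at 576 CPM. All 4 endothelial markers (Cldn5, Flt1, Pecam1, Ly6c1) were at 0 UMIs in the Cck/Cpne4 nuclei. So were all 10 pericyte and fibroblast markers (Pdgfrb, Rgs5, Vtn, Col1a1, Col1a2, Col3a1, Dcn, Lum, Slc6a13, Igfbp2), a list added after values were seen. Whether RNA of such cells added to the Mgp counts was not tested. The matrix genes Matn2 (232 CPM against 21.3 CPM in other excitatory neurons), Lamb1 (179 against 15.8 CPM), Ntn4 (159 against 19.7 CPM) and the transmembrane collagen gene Col25a1 (814 against 104 CPM) belong to the same set.

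Receptors formed another part of the set. Erbb4, the neuregulin receptor tyrosine kinase, was at 6679, 7307 and 6358 CPM in the TESS samples and at 6033, 6404 and 8295 CPM in the CON samples. It was at 682 CPM in the other excitatory neurons, and the next subtype, Npyr-2, had 3150 CPM. Thinned to 500 UMIs, Erbb4 was seen in 93.0% of the Cck/Cpne4 nuclei, against 21.7% of other excitatory and 19.4% of inhibitory nuclei. It was also seen in 33.0% of oligodendrocytes, a glial class known to express it. By class, Erbb4 was at 2367 CPM in oligodendrocyte precursors, 1762 CPM in astrocytes and 1102 CPM in oligodendrocytes. It was at 180 CPM in endothelial nuclei and 159 CPM in microglia. Tgfbr2, a receptor for transforming growth factor beta, was at 285 CPM against 4.88 CPM in other excitatory neurons, although microglia (492 CPM) and endothelial nuclei (306 CPM) carried it too. Calcrl, which forms the receptors for CGRP and adrenomedullin, had 99.3 CPM (15 UMIs) against 7.23 CPM, and Plxnb1, a semaphorin receptor, had 66.2 CPM (10 UMIs) against 5.28 CPM.

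Regulators of transcription were the third group. Bnc2, a zinc finger gene, was at 1278 CPM (Poisson interval 1104 to 1471) against 60.0 CPM in the other excitatory neurons. The Grp subtype matched it at 1280 CPM, and the Bnc2 subtype had 1100 CPM, with an overlapping interval of 904 to 1327. Dach2, of the dachshund family, was at 695 CPM against 19.1 CPM, and the histone deacetylase gene Hdac9 was at 583 against 55.3 CPM. The zinc finger gene Zfp804b had 4872 against 729 CPM, the imprinted zinc finger gene Plagl1 had 72.8 against 6.64 CPM, and the nuclear receptor gene Rorb had 417 against 67.4 CPM. For Rorb the subtype had rank 5 of 38, and Rorb-I was highest at 1147 CPM.

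The rest of the 25 were signalling, secretory and other genes. They were Otof, a calcium sensor of exocytosis in hair cells (569 against 81.7 CPM in other excitatory neurons), Syt6 of the synaptotagmin family (364 against 53.3 CPM), Rgs6, a regulator of G-protein signalling (1655 against 268 CPM), and Actn2, an actin crosslinker (205 against 30.1 CPM). Trhde, which degrades thyrotropin-releasing hormone, was at 808 against 118 CPM, and Nppc, the precursor of C-type natriuretic peptide, at 490 against 78.0 CPM. The first rank of Nppc is not resolved, since its Poisson interval of 385 to 615 CPM holds the levels of the subtypes Npy, Rorb-I, Rorb and Cdh3, at 472, 471, 467 and 449 CPM. Nxpe4 had 192 against 7.23 CPM and Tsx 126 against 4.30 CPM. In CON 2, Syt6 was nearly level between the 2 classes, with a log2 ratio of 0.04, and its highest log2 ratio in any sample was 3.84. Matn2, Hdac9, Nxpe4, Plxnb1, Rgs6, Trhde and Tsx overlap another annotated gene, so which gene gave their reads is uncertain, the counting strand being not given in the sources used here.

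**Figure D3:**
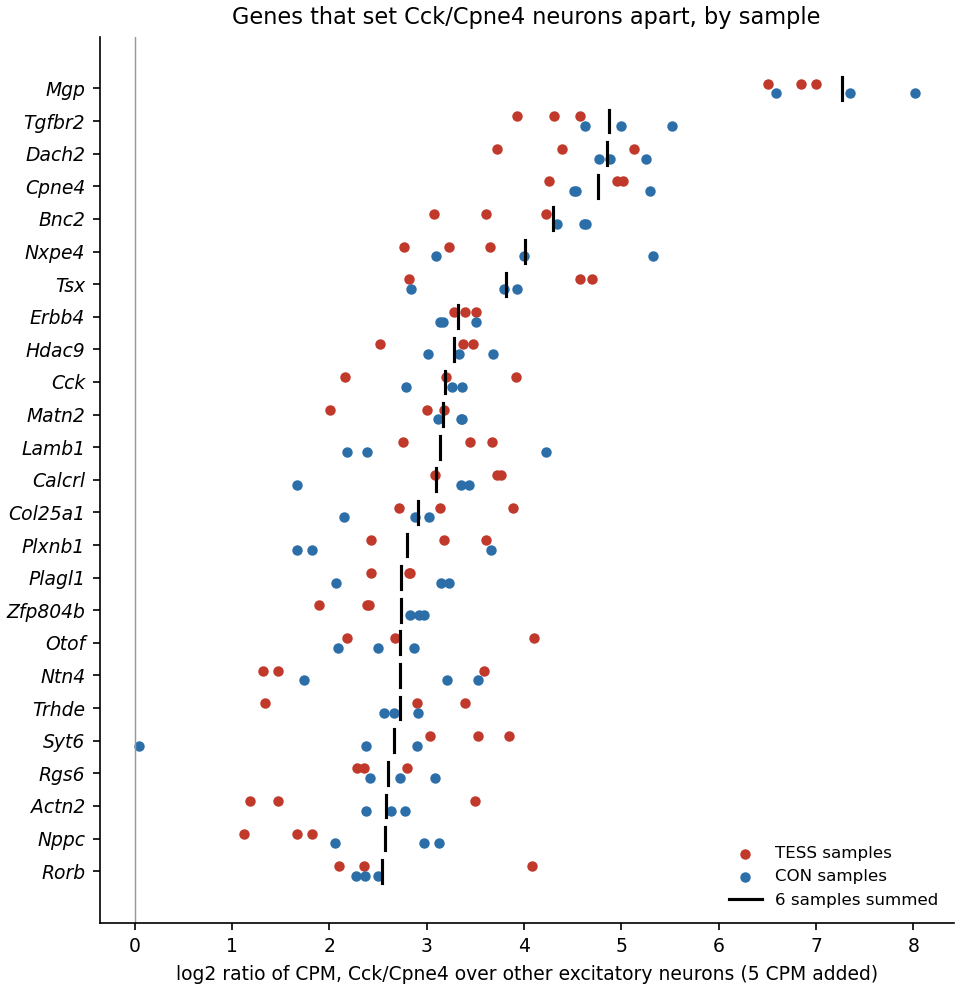
Log2 ratio of CPM in Cck/Cpne4 neurons over CPM in the other excitatory neurons of the same sample (5 CPM added to both) for the 25 genes with the largest ratio; each row has 3 TESS points, 3 CON points and a bar for the 6 samples summed. Mgp has the highest ratio, every point lies above 0, and the lowest is that of Syt6 in CON 2 at 0.04.

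The 25 genes were spread over most members, and the contrast with other neurons follows from how the genes were chosen. Leaving out Cck and Cpne4, the median Cck/Cpne4 nucleus held a UMI of 8 of the other 23 genes (range 2 to 17), while the median other excitatory nucleus, which was deeper, held 2. At least 3 of the 23 were seen in 119 Cck/Cpne4 nuclei (97.5%) and in 28.8% of other excitatory nuclei. The 2 nuclei with neither Cck nor Cpne4 held 530 and 1156 UMIs, and 2 to 6 of these genes.

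Several genes of other excitatory subtypes were missing or nearly so, set against a level pooled over those subtypes. With a mirrored rule, chosen after values were seen (at least 50 CPM in other excitatory neurons and lower in each sample, 497 genes of 3900), the gene lowest relative to the others was Tac2, the neurokinin B precursor, with 1 UMI (6.62 CPM) against 964 CPM in other excitatory neurons. Nmu, encoding neuromedin U, and the transcription factor genes Maf and Bcl11a had 0 UMIs, against 167, 110 and 109 CPM, and 0 UMIs allow up to 19.9 CPM. Fbn2, Zfp385b, F2rl2, Kcnmb2, Dgkg and Col19a1 were at 0 UMIs as well. Ptprt, a receptor phosphatase, had 13.2 against 540 CPM, and Grik1, a kainate receptor subunit, 6.62 against 188 CPM. Trh, the peptide of the other subtype with the highest Cck level, was at 0 UMIs in every sample, as it was in many other excitatory subtypes. A pooled level can come from few subtypes. Maf was at 829 CPM in Rora/Parp8 and 501 CPM in Maf/Clbn2, but at 0 UMIs in Grp and Tac2/Nmu as well. The absence of Trh or Maf is thus not particular to the Cck/Cpne4 neurons.

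Over 7937 genes with at least 20 CPM in either class, 3.07% were higher in the Cck/Cpne4 neurons in each of the 6 samples and 10.4% were lower in each. The counts that follow are read against these shares as descriptions, with no test. A sample with no UMI of a gene counts as lower, and in a TESS sample a count of 3 equals 197 to 271 CPM. A weakly expressed gene is thus more easily lower than higher in all 6, here and in the mirrored rule above. These counts therefore mix depth with level. Among peptide precursors, 3 of 17 genes at that level were higher in all 6 samples (Cck, Nppc and Nxph4) and 6 were lower. Sst, the somatostatin precursor, was at 632, 2390 and 3081 CPM in the TESS samples and at 3219, 2796 and 2756 CPM in the CON samples. TESS 1 lay far below the rest, on 7 UMIs, and the groups overlapped. Ucn3, encoding urocortin 3, had 152 against 10.7 CPM in other excitatory neurons, on 23 UMIs, of which 1 came from TESS nuclei. Nts and Penk, which encode neurotensin and enkephalin, were lower in all 6 samples, at 39.7 against 355 CPM and 33.1 against 279 CPM. Adcyap1, encoding PACAP, had 59.6 CPM, Nxph4 79.4 CPM and Grp 19.9 CPM. Among peptide receptors, Calcrl alone of 11 was higher in each sample, and Npy1r, a neuropeptide Y receptor, had 106 against 22.7 CPM.

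Of 31 transcription factor genes of the dorsal horn at that level, 6 were higher in all 6 samples and 13 were lower. The higher ones were Ebf1 (7864 against 3015 CPM in other excitatory neurons), Ebf2 (1549 against 653 CPM) and Ebf3 (483 against 270 CPM) of the early B cell factor family, the homeobox gene Meis1 (530 against 184 CPM), Rorb and the zinc finger gene Casz1 (192 against 72.3 CPM). For Ebf1 the Trh subtype had 8370 CPM and the Bnc2 subtype 7683 CPM, and their Poisson intervals overlap that of the Cck/Cpne4 neurons. Rora, an orphan nuclear receptor gene, was lower in all 6, at 702 against 1599 CPM, and so were Tcf4, Zeb2, Meis2 and Nfib. Lmx1b, which specifies dorsal excitatory neurons during development, was at 113 against 85.4 CPM. Of 25 genes of ventral lineages, 2 had any UMI and none reached 20 CPM, and they summed to 13.2 CPM here and to 26.8 CPM in the other excitatory neurons, low in both.

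Genes of excitability and transmission were split in both directions. Of 28 potassium channel genes, 6 were higher in all 6 samples, among them Kcnq5 (1913 against 647 CPM in other excitatory neurons, first of 38 subtypes), which carries the M-current, and the sodium-activated channel gene Kcnt2 (1384 against 331 CPM), and 8 were lower, among them the calcium-activated Kcnma1 (113 against 686 CPM). Of 21 glutamate receptor genes, 6 were higher, among them the AMPA receptor subunit gene Gria1 (1350 against 409 CPM) and the NMDA receptor subunit gene Grin2a (1218 against 471 CPM), and 7 were lower. Of 18 GABA and glycine receptor genes, 5 were higher and 5 lower. Of 24 sodium, calcium and HCN channel genes, the calcium channel subunit gene Cacna2d1 alone was higher in all 6 (1768 against 1324 CPM), and 5 were lower. The muscarinic receptor gene Chrm3 was at 775 against 233 CPM.

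Cell-surface genes were also split. Of 29 synaptic adhesion genes, 7 were higher in all 6 samples, led in CPM ratio by the cerebellin genes Cbln1 (285 against 45.9 CPM in other excitatory neurons) and Cbln2 (285 against 52.8 CPM), and including Cntnap2, a contactin-associated gene (11883 against 4364 CPM). The 12 lower ones included Lrrtm4 (285 against 3200 CPM) and Il1rapl1 (179 against 1845 CPM). Of 21 cadherin and protocadherin genes, 3 were higher (Cdh13, Cdh8 and Cdh4) and 10 lower. Among copines Cpne8 (887 against 454 CPM) and Cpne7 (119 against 47.3 CPM) were higher in all 6 together with Cpne4. Sgk1, a kinase gene induced by glucocorticoids, was at 430 against 119 CPM, first of 38 subtypes, and was lower than in the other excitatory neurons in 1 sample.

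Over 12512 genes with at least 20 CPM in some subtype, the profile was most like those of Fxyd6 (Spearman rho 0.821), V2a/Slc17a6 (0.813) and Maf/Clbn2 (0.806) among 24 subtypes with 10 or more nuclei in every sample. These are correlations across genes, which are not independent, and they move with the depth of the subtype compared. Fxyd6 had more inhibitory than excitatory transmitter UMIs (247 against 176) and so was not counted among the other excitatory subtypes.

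Oligodendrocyte transcripts were present at a low level: the 6 markers summed to 1083 to 1835 CPM in the TESS samples and 601 to 1525 CPM in the CON samples, and to 739 CPM in the other excitatory neurons. No nucleus had 2% or more of its UMIs in glial, endothelial or blood markers. Astrocyte markers summed to 65.5 to 137 CPM in TESS and 0 to 30.1 CPM in CON, without overlap but on 4 UMIs against 2, with Aqp4 and Aldh1l1 at 0. Microglial markers summed to 0 to 90.3 CPM in TESS and 60.1 to 80.3 CPM in CON, with Csf1r and Cx3cr1 at 0, and blood markers to 68.3 to 271 CPM in TESS and 53.5 to 76.0 CPM in CON. Of 3 markers of oligodendrocyte precursors 1 had a single UMI. The part of this RNA in the results was not tested.

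The comparison of TESS with CON asked which transcripts of the Cck/Cpne4 neurons differ after stimulated walking. No gene passed. TESS 1, with 6 nuclei, fell under the minimum of 10 nuclei for a sample, so the edgeR quasi-likelihood test set 2 TESS samples against 3 CON samples. Of 585 genes tested, 281 were nominally higher and 304 lower in TESS, with a median log2 fold change of −0.03. At an adjusted p below 0.05, 0.0% were called; 45 genes had an unadjusted p below 0.05, and the smallest adjusted p was 0.114. DESeq2 also called 0 genes, with 15 at an unadjusted p below 0.05, and with all 6 samples edgeR called 0 of 337. Without a filter on low counts it called 2, Malat1 and Pcsk1n, both lower in TESS. The median log2 change over the 11212 genes of that fit was −0.87, so the fit as a whole was shifted toward lower in TESS. The 2 TESS samples did not overlap the CON samples in 28.0% of tested genes, a background that leaves such separation of a single gene with little weight. The share of genes that separate all 6 samples was not counted. The separations of all 6 samples named below therefore stand without a background and are descriptions.

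Cck itself was lower in each TESS sample. It was at 2347, 3415 and 4457 CPM in TESS, against 5729, 5081 and 5191 CPM in CON. The groups did not overlap, with the lowest value in TESS 1, the sample of 6 nuclei. The means of 3406 ± 1055 CPM in TESS and 5334 ± 347 CPM in CON gave a log2 ratio of −0.65 (SD, n = 3 each, two-sided exact permutation p = 0.1, the smallest that 3 against 3 allow). In the fit with 2 TESS samples the change was −0.53 ± 0.23 (log2 ± SE, edgeR adjusted p = 0.549). Without Malat1, a nuclear RNA that took 1.52%, 2.53% and 2.41% of UMIs in TESS and 2.32%, 4.75% and 3.45% in CON, the log2 ratio was −0.67.

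In the other excitatory neurons of the same samples the log2 change of Cck was −0.62 ± 0.18, which did not pass either (edgeR, adjusted p = 0.0726). The difference between the 2 classes was −0.42 ± 0.24 (edgeR, adjusted p = 0.782), beside a median of −0.43 over all genes of that fit. Of the other subtypes with over 1000 CPM of Cck, Meis2 had 749 ± 196 CPM in TESS and 2014 ± 504 CPM in CON, and its groups did not overlap either (exact p = 0.1). Maf/Clbn2 had 1209 ± 385 CPM in TESS and 1930 ± 449 CPM in CON, Rora/Parp8 had 1206 ± 669 and 1634 ± 269 CPM, and Trh had 5522 ± 2268 and 6074 ± 169 CPM, all with overlapping groups (SD, n = 3 each, exact permutation p = 0.2, 0.4 and 1.0). These 5 tests were not independent of each other, since they share samples, and none could pass at this size.

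**Figure D4:**
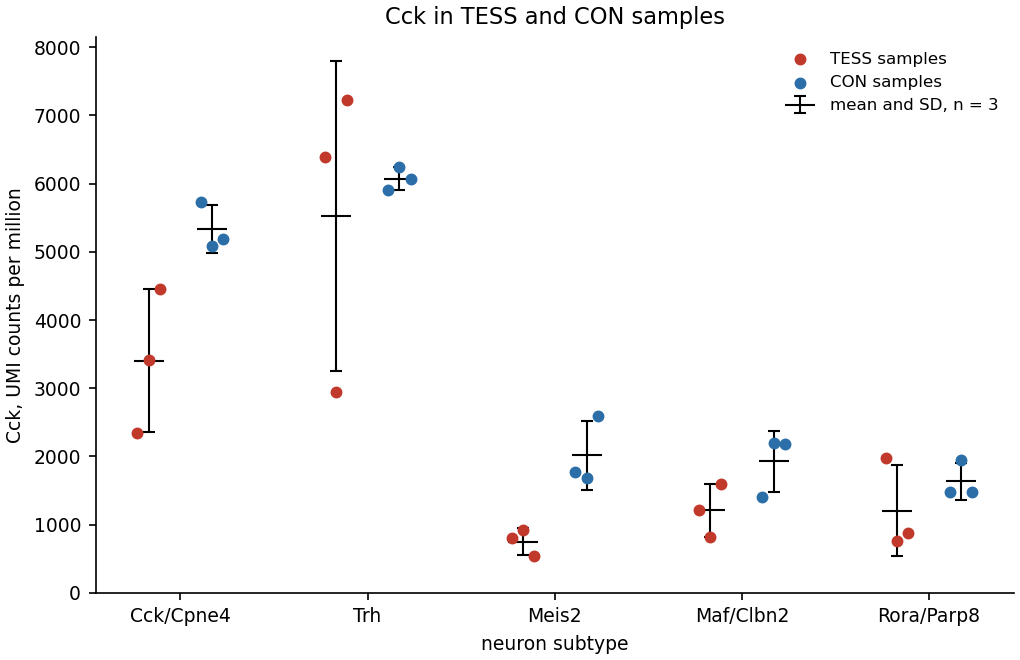
Cck level in CPM in the 5 neuron subtypes with over 1000 CPM, with TESS samples left of CON samples; points are samples and bars the mean and SD (n = 3). In the Cck/Cpne4 neurons the TESS samples lie between 2347 and 4457 CPM, all below the lowest CON sample at 5081 CPM, while the TESS samples of Trh spread on both sides of CON.

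Cpne4 differed by less than the spread between samples, at 3700, 4029 and 3081 CPM in TESS and 3042, 3458 and 3372 CPM in CON (log2 change 0.02 ± 0.23, edgeR adjusted p = 0.996). Of the 25 marking genes 16 passed the filter on low counts, 7 nominally higher and 9 lower, and none passed the test.

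The 5 genes with the smallest p in each direction are given although none passed. They were picked on TESS 2 and TESS 3 against CON, so among TESS samples only TESS 1 had no part in the choice. Scg2, the secretogranin II precursor, was at 181, 820 and 852 CPM in TESS and at 355, 271 and 214 CPM in CON. TESS 2 and TESS 3 lay above every CON sample and TESS 1 below them, and the fit without TESS 1 gave 1.47 ± 0.42 (log2 ± SE, edgeR adjusted p = 0.114). Mgat4c, a glycosyltransferase gene, was at 451, 956 and 459 CPM in TESS and at 76.0, 180 and 241 CPM in CON, the one gene of the 5 that was higher in every TESS sample (1.99 ± 0.57, edgeR adjusted p = 0.114). Nyap2, Gabbr2, a GABA-B receptor subunit gene, and Nrg1, an Erbb4 ligand, had log2 changes of 1.20, 1.10 and 1.27, with TESS 1 below all CON samples for Nyap2 and Gabbr2.

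In the other direction, Nppc was at 181, 137 and 262 CPM in TESS and at 482, 661 and 669 CPM in CON. All TESS samples lay below all CON samples (8 UMIs against 66), and the fit gave −1.65 ± 0.54 (edgeR adjusted p = 0.283). Nrg3os, an antisense transcript that overlaps Nrg3, was at 271, 205 and 0 CPM in TESS and at 507, 481 and 535 CPM in CON, again without overlap (−2.38 ± 0.68, edgeR adjusted p = 0.114). Cox4i1, a cytochrome c oxidase subunit gene, Pcsk1n, which encodes an inhibitor of prohormone convertase, and Osbpl9, a lipid-binding protein gene, changed nominally by −2.42, −0.99 and −2.65, and TESS 1 lay within or above the CON range for all of them. Comparing only samples of the shared batch (TESS 1 with CON 1 and CON 2), 6 of the 10 genes had the opposite sign (Scg2, Nyap2, Gabbr2, Nrg1, Cox4i1, Pcsk1n). Cox4i1, Nrg1 and Osbpl9 overlap another annotated gene.

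**Figure D5:**
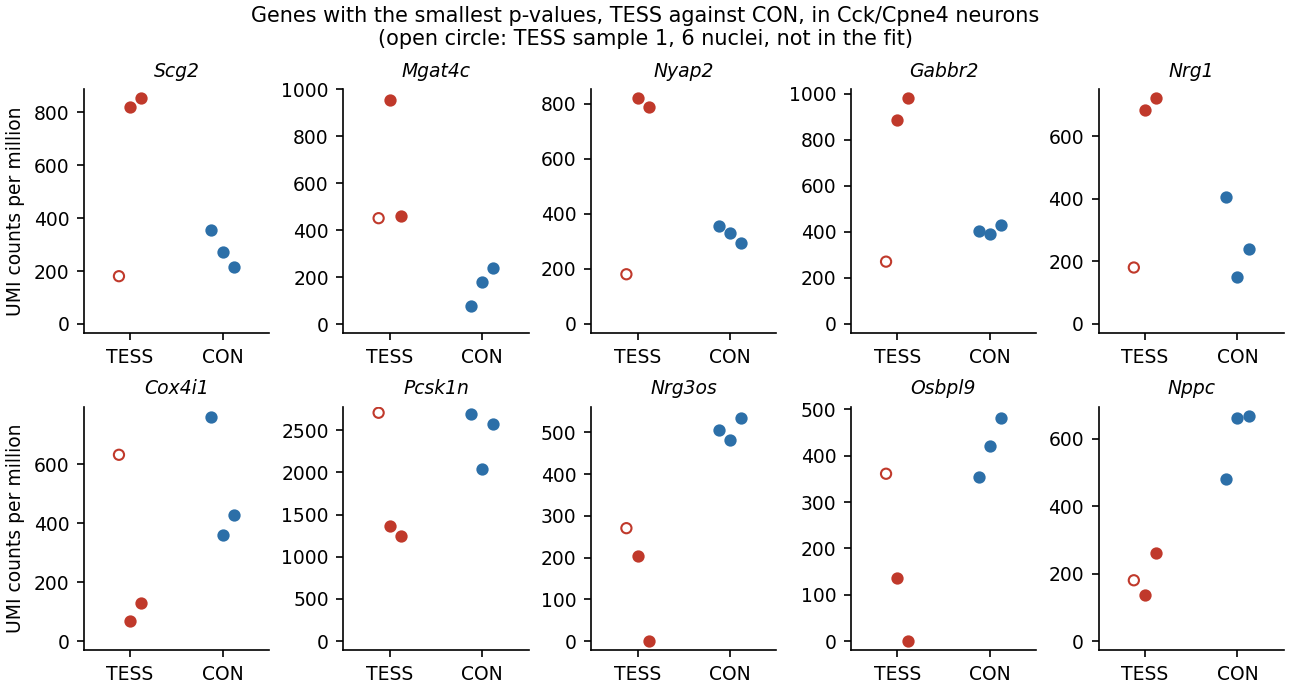
CPM of the 10 genes with the smallest p-values, TESS samples left of CON samples, each point 1 sample; the open circle is TESS 1, with 6 nuclei, which was not in the fit. Mgat4c, Nppc and Nrg3os separate all 6 samples, and the share of all genes that do so was not counted. TESS 1 lies below the CON samples for Scg2, Nyap2 and Gabbr2 and inside or above their range for Cox4i1 and Pcsk1n.

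Immediate early genes were too scarce to test. Of 33 immediate early genes, which cells switch on within minutes of stimulation, 14 had any UMI and none passed the filter. Summed, they reached 328 to 683 CPM in TESS and 177 to 361 CPM in CON, and the ranges overlapped (20 UMIs against 29). Fos, a subunit of the AP-1 transcription factor, had 4 UMIs in 3 TESS nuclei (1, 3 and 0 in TESS 1, 2 and 3) and 0 in CON nuclei, too few to set a fold. Of 22 genes of the delayed activity response, 2 could be tested, Scg2 and Pde10a, a phosphodiesterase gene, with log2 changes of 1.47 and 0.58, and neither passed (edgeR adjusted p = 0.114 and 0.924). The 22 genes summed to 993, 2322 and 3343 CPM in TESS and to 1597, 1413 and 1498 CPM in CON, with TESS 1 below and the other TESS samples above every CON sample. Egr1, Npas4 and Btg2 had 0 UMIs in both groups, Fosb and Nr4a1 each had 1 UMI in TESS and 0 in CON, and Per1, Junb and Arc each had 0 in TESS and 1 in CON. In the other excitatory neurons the light- and activity-induced clock gene Per1 rose by 1.47 ± 0.30 (edgeR adjusted p = 0.0093). Whether the Cck/Cpne4 neurons share this was not detectable at their depth. Of the receptors that the agonists target, Htr1a had 0 UMIs in both groups and Drd1 had 0 in TESS and 4 in CON. The peptide genes Nts and Gal had 2 and 0 UMIs in TESS and 4 and 0 in CON, too few to compare. In the other excitatory neurons Nts changed by −1.16 ± 0.16 (edgeR adjusted p = 3.3e-05) and Gal by 0.15 ± 0.27 (edgeR adjusted p = 0.864).

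By list, no group of genes held a called member. Of 12 sodium, calcium and HCN channel genes tested 5 were nominally higher and 7 lower (median log2 change −0.19), of 10 potassium channel genes 2 and 8 (−0.14), of 13 glutamate receptor genes 5 and 8 (−0.11), of 9 GABA and glycine receptor genes 5 and 4 (0.02), of 19 synaptic adhesion genes 10 and 9 (0.01) and of 9 dorsal horn transcription factor genes 3 and 6 (−0.03). These medians stand beside −0.03 over all tested genes, and with all 6 samples that of the sodium, calcium and HCN channels was 0.19, that of the potassium channels 0.0039 and that of the transcription factors 0.25. The 3 peptide genes tested (Cck, Nppc and Sst) were all nominally lower.

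Whether TESS acted on these neurons differently from other excitatory neurons was tested as an interaction with the sample as a block, over all 6 samples. Of 5725 genes, 2 were called (0.0349%), and both changes were lower in the Cck/Cpne4 neurons. Zfp804b was at 2708, 4576 and 3998 CPM in TESS and at 5323, 5412 and 5031 CPM in CON, and its groups did not overlap. In the other excitatory neurons it was at 727, 871 and 752 CPM in TESS and 743, 685 and 660 CPM in CON, and the difference in log2 change was −1.07 ± 0.23 (edgeR adjusted p = 0.0146). Pde4d, a cAMP phosphodiesterase gene, was at 1264, 6488 and 6555 CPM in TESS and at 7732, 6434 and 4442 CPM in CON. TESS 1 alone lay below the CON range, and the difference was −0.98 ± 0.22 (edgeR adjusted p = 0.0146). In this fit the median difference of all genes was −0.43, so that relative to it the values were −0.63 for Zfp804b and −0.55 for Pde4d. With RLE scaling the median was −0.14, the relative values were −0.63 and −0.55, and 0 genes were called. Without TESS 1, CON 1 or CON 2 in turn, 0 genes were called as well. The genes next in line, none of which passed, were Cdh8, Cntnap2 and Osbpl9 on the lower side and Adcyap1, Mgat4c, Rps14, Adprh and Nptx1 on the higher side, with adjusted p from 0.336 to 0.623 (edgeR). Cdh8, Rps14 and Adprh overlap another annotated gene.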

How the data were processed

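The deposited table holds UMI counts of 19954 gene symbols per nucleus, whole numbers as the authors deposited them. Per the submitters' processing notes, Cell Ranger 2.2.0 and Seurat 3 were used, with mm10 and GRCm38 as builds. Whether intronic reads or the strand were used, and how doublets were treated, is not given in the sources used here; no doublet step was added. Cell types and batch numbers are the authors' metadata, and the mitochondrial fraction they deposited was at most 1.23% in the Cck/Cpne4 nuclei.

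Counts of the Cck/Cpne4 nuclei were summed per sample. TESS was tested against CON with edgeR 4.0.16 (R 4.3.3; quasi-likelihood test, TMM, filterByExpr with minimum count 10, samples with at least 10 nuclei), adjusted over all genes tested and called below 0.05. DESeq2 1.42.0 was an alternative. Both edgeR fits were checked on simulated counts with large added changes and a fixed spread. That check does not give their power or error rate on these data. Levels are CPM over all UMIs of the class. Thinning drew 500 UMIs per nucleus. Intervals and floors cover counting error at 95% only. Replicate numbers were not used as pairs in the main fit. The correlations of same-numbered deviations were −0.026, 0.043 and −0.064 over 585 genes, and counting noise at this depth could hide a shared effect. The chi-square per degree of freedom between pairs of samples was 1.32 to 2.28, so no pair agreed within counting noise, which does not show that they came from separate animals.

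Named genes were the label's 3 markers, the 25 largest ratios, the 5 smallest p in each direction where fewer passed, fixed activity and receptor genes, and the highest members of each list. The members and the 32 gene lists were chosen with earlier results of these data known; 1 list, of pericyte and fibroblast markers, was added after values were seen, as were the fits of all 6 samples and the Cck alternatives. Of the symbols, 19182 matched GENCODE vM21.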

Additional observations from a re-analysis of the deposited data

Results flagged for a closer look

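The TESS change of 2 genes differed between the Cck/Cpne4 neurons and the other excitatory neurons by a test of the difference itself. For Zfp804b the difference in log2 change was −1.07 and for Pde4d −0.98 (edgeR interaction with the sample as a block, 6 samples, adjusted p = 0.0146 for each). Zfp804b was lower in 3 of 3 TESS samples than in every CON sample within the Cck/Cpne4 neurons, and Pde4d in 1 of 3, TESS 1, the sample of 6 nuclei. Both values lie below a median of −0.43 over all genes of that fit, and neither gene was called with RLE scaling. The part of the depth of TESS 1 in these results was not tested beyond leaving that sample out. That gave −0.95 for Zfp804b and −0.53 for Pde4d (edgeR adjusted p = 0.106 and 0.772). The median over all genes of the fit without TESS 1 was −0.42. Relative to that median the values were −0.53 for Zfp804b and −0.11 for Pde4d, so little of the Pde4d difference remained. Groups of 3 samples were not searched for outliers.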

How the results depend on the processing

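For TESS against CON, 0 genes were called at first and under DESeq2, RLE, minimum count 5 and the replicate block. The same held with 15 nuclei per sample, with all 6 samples, and with each CON sample left out in turn (0 to 0). Without a filter 2 were called, in a fit with a median log2 change of −0.87. Leaving out TESS 2 or TESS 3 sets 1 TESS sample against CON, whose samples alone then give the spread, so those fits say nothing about stability. With all 6 samples and a batch term, only the shared batch holds both groups, so that fit rests on TESS 1 against CON 1 and CON 2. No nucleus was rich enough in glial UMIs to be removed, and a batch term in the 5-sample fit could not be estimated, so there batch and group cannot be told apart. For the interaction, 2 genes became 4 at minimum count 5 (with Cdh8 and Cntnap2), 0 with RLE and 0 to 2 leaving out each sample. The share difference in percentage points ranged from −1.20 to −0.50 leaving out each sample and kept its sign with both other denominators. The difference in median UMIs ranged from −355 to 53, turning positive without TESS 2 (46.2) or CON 2 (53.0). The log2 ratio of Cck was −0.44 without TESS 1.

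In the shared batch alone, signs turned for Scg2 (−0.68), Nyap2 (−0.80), Gabbr2 (−0.54), Nrg1 (−0.45), Cox4i1 (0.13) and Pcsk1n (0.10). With all 6 samples and a batch term, again TESS 1 against CON 1 and CON 2, Gabbr2 (−0.72) and Pcsk1n (0.017) turned. That fit kept 337 genes, so a gene not named here may have been absent from it. Cpne4, near 0, turned without a filter (−0.37), at minimum count 5 (−0.0069), and with the replicate block (−0.032), and ranged from −0.23 to 0.16 leaving out each sample. The causes were not tested. Depth limits the comparison: 585 of 19954 genes could be tested.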
